A study of Homo sapiens with 18 samples.

Results

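The 10 genes described here encode structural proteins, enzymes and secreted factors of the late stages of keratinocyte differentiation: IVL, SPRR1A, SPRR1B, SPRR2A, SPRR2D, TGM1, KRTDAP, SBSN, CNFN and PI3. They were taken by name from the deposited expression table, in which all 10 were found among 16472 genes, and all 10 were among the 13280 genes tested. RNA was sequenced from NIKS cells, an established line of immortalised human keratinocytes that is kept on irradiated J2/3T3 mouse fibroblasts. Cells were SP100 wild type (WT) or SP100 knockout (KO), and each genotype was left untreated (0 h) or kept for 12 or 48 h with 25 ng/mL of human interferon alpha 2a, with 3 libraries in each of the 6 groups. Column names give 1 line per genotype, so the knockout cannot be told apart from whatever else differs between them. No untreated library at 12 or 48 h was analysed here, and hours of interferon cannot be told apart from hours of culture, and every change over time below is a change between those groups.

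The cornified envelope is a layer of cross-linked protein that forms beneath the plasma membrane of keratinocytes as they die and flatten into the outer barrier of the skin. Involucrin and the small proline-rich (SPRR) proteins are among its precursors, and transglutaminase 1 joins them through bonds between glutamine and lysine side chains. In culture, these genes are switched on as keratinocytes leave the basal layer, and several respond to calcium, to stress and to transcription factors of the AP-1 family. Type I interferons such as interferon alpha act mainly through a complex of STAT and IRF proteins that binds a different DNA element, the interferon-stimulated response element.

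SP100, the targeted gene, was at 30 ± 2 RPKM (reads scaled to gene length and library size, mean ± SD) in untreated WT cells and at 15.1 ± 0.88 RPKM in untreated KO cells, and it was lower in KO at 12 h (89.1 ± 3.6 against 159 ± 11.2) and at 48 h (59.8 ± 2.5 against 127 ± 3.8). SP100 RNA was thus present in KO libraries, at 12 and 48 h above its level in untreated WT cells, so the RNA level by itself does not show a knockout. Which part of the gene was altered is not given in the sources used here, and KO is the submitters' label. Relative sequencing depth, estimated from ratios between libraries over genes at low RPKM, differed by 1.52-fold between the shallowest and deepest of the 18 libraries. Replicates of a group correlated at 0.985 to 0.989 across genes. The 15 basal keratinocyte genes examined were all in the table and summed to 16066 to 18903 RPKM per library. Of 11 fibroblast markers, 4 were in the table, with sums of 6.21 to 9.48 RPKM, and none of 4 endothelial markers was. Among 6 leukocyte markers only CD14 and CD68 were in the table, and they moved in opposite directions. CD68 rose at 12 h by 1.39 (log2) in WT and 1.60 in KO, with WT means of 19.5, 52.9 and 38.3 RPKM at 0, 12 and 48 h. CD14 fell by 0.84 in WT and 1.34 in KO, with WT means of 5.09, 2.40 and 2.81 RPKM. Their part in the results below was not tested, and the other 4 leukocyte markers, PTPRC among them, were not in the table. In bulk RNA, fewer cells of a type and less RNA per cell cannot be told apart.

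Promoter sequences were examined for the 7 genes that had an entry in the RefSeq promoter table (GRCh38.p14). SPRR2D, TGM1 and PI3 had no entry. The 200 bases before each annotated start are printed 5′ to 3′ on the strand of the gene, because most of the 10 moved together over time, and to show which short motifs they share. Capitals mark matches to the AP-1 motif TGANTCA and to the TATA box TATAAA. The windows are chr1:152908346-152908545 (IVL, plus strand), chr1:152983881-152984080 (SPRR1A, plus), chr1:153031003-153031202 (SPRR1B, plus), chr1:153057513-153057712 (SPRR2A, minus), chr19:35490465-35490664 (KRTDAP, minus), chr19:35528312-35528511 (SBSN, minus) and chr19:42390298-42390497 (CNFN, minus).
IVL: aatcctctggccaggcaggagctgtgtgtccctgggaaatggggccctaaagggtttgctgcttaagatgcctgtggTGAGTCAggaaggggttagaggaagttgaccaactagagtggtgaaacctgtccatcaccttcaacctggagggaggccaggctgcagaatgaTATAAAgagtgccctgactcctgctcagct
SPRR1A: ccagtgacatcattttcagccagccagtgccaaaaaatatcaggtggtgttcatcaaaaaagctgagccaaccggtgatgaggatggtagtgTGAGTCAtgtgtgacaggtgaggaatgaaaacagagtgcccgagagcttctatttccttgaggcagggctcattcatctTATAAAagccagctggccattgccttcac
SPRR1B: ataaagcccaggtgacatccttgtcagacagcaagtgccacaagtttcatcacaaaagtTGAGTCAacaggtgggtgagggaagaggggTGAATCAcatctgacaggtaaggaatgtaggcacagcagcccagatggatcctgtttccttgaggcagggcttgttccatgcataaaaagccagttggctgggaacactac
SPRR2A: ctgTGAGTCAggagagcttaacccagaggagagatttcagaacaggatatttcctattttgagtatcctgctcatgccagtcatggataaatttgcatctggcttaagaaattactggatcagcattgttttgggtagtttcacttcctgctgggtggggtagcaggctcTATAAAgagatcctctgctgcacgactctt
KRTDAP: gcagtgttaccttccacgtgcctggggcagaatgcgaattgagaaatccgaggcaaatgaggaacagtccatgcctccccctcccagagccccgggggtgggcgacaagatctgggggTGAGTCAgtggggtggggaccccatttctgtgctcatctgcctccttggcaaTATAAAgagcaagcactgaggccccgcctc
SBSN: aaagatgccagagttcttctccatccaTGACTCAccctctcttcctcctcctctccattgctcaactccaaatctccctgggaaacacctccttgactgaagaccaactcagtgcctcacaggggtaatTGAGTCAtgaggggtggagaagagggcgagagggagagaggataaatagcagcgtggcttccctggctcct
CNFN: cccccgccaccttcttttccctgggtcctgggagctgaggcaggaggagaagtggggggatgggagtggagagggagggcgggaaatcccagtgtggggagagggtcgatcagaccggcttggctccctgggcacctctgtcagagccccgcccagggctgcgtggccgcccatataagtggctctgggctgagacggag

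Both strands of each 300-base window, from 250 bases before the start to 50 after it, were searched for 4 motifs. The AP-1 motif TGANTCA was in 6 of the 7 windows, all but that of CNFN, against 7.71% of all 35116 promoter windows. SPRR1B and SBSN held it at 2 positions each. In KRTDAP it began 82 bases before the start, in IVL 123 bases and in SPRR2A 197 bases. The TATA box TATAAA was in 4 of the 7 windows (IVL, SPRR1A, SPRR2A and KRTDAP), against 11.53% of all, and it began 29 or 30 bases before the start in each. A core of the interferon-stimulated response element, GAAANNGAAA, was in none of the 7 and in 3.57% of all windows. The motif AACCNGNTT, bound by grainyhead-like factors, was likewise in none of the 7 and in 2.11% of all. No motif searched overlaps another in these windows. These are matches of letters in a short window and not measured binding. KRTDAP held both the AP-1 motif and the TATA box, although it did not pass the test at 12 h described below. The part of these motifs in the changes over time was not tested. Only exact matches were counted. The SPRR2A window holds TTTCACTTCC, a base away from TTTCNNTTTC, the reverse complement of the interferon-stimulated core, and such near matches were not counted in any window. For motifs as rare as these cores, absence from 7 windows cannot tell these genes from others.

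**Figure D1:**
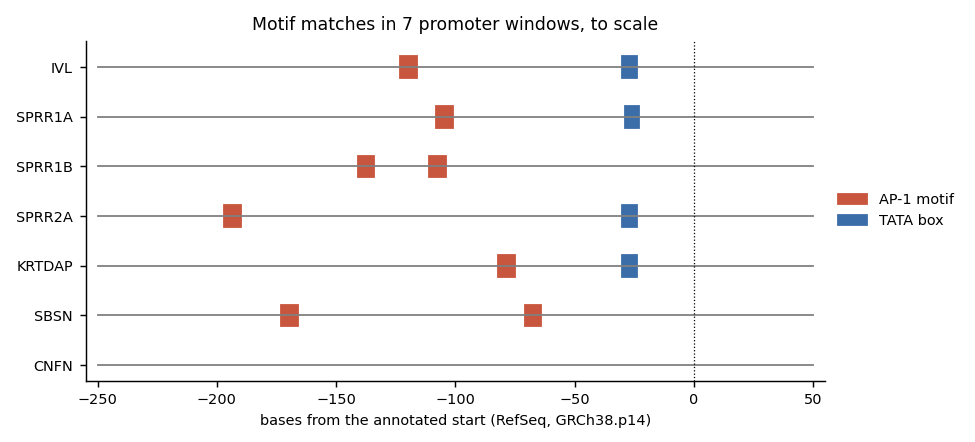
Position of AP-1 and TATA box matches in the promoter windows of 7 genes, in bases from the annotated start (x axis, to scale), with 1 line per gene. AP-1 matches lie between 197 and 71 bases before the start in 6 genes, the 4 TATA boxes begin 29 or 30 bases before it, and CNFN has neither.

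RPKM is scaled to gene length, so levels are set beside each other here, although the annotation used for it is not given. The places of SPRR2A, SPRR2D and SPRR1A are less certain, because these genes share sequence with relatives, as described below. SPRR1B was the highest of the 10 in all 6 groups, at 100 ± 5.5 RPKM (SD, n = 3) in untreated WT cells. PI3 at 25.9 ± 2.4 RPKM and KRTDAP at 22.2 ± 1.4 RPKM followed, each clear of the next gene down. SPRR1A (13 ± 2.7), SBSN (10.3 ± 1.3) and SPRR2D (8.9 ± 0.17) came next, and the ranges of neighbours in this run overlapped. Below them IVL was at 7.7 ± 0.21 RPKM, TGM1 at 6.45 ± 0.31 RPKM, CNFN at 2.21 ± 0.56 RPKM and SPRR2A at 1.27 ± 0.095 RPKM, with no overlap between neighbours. The order moved at 12 h in interferon, when SPRR2D passed KRTDAP in WT at 31.9 ± 3.2 RPKM and passed PI3 as well in KO, at 47.1 ± 8.2 RPKM. CNFN and SPRR2A stayed at the bottom of the 10 in every group.

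**Figure D2:**
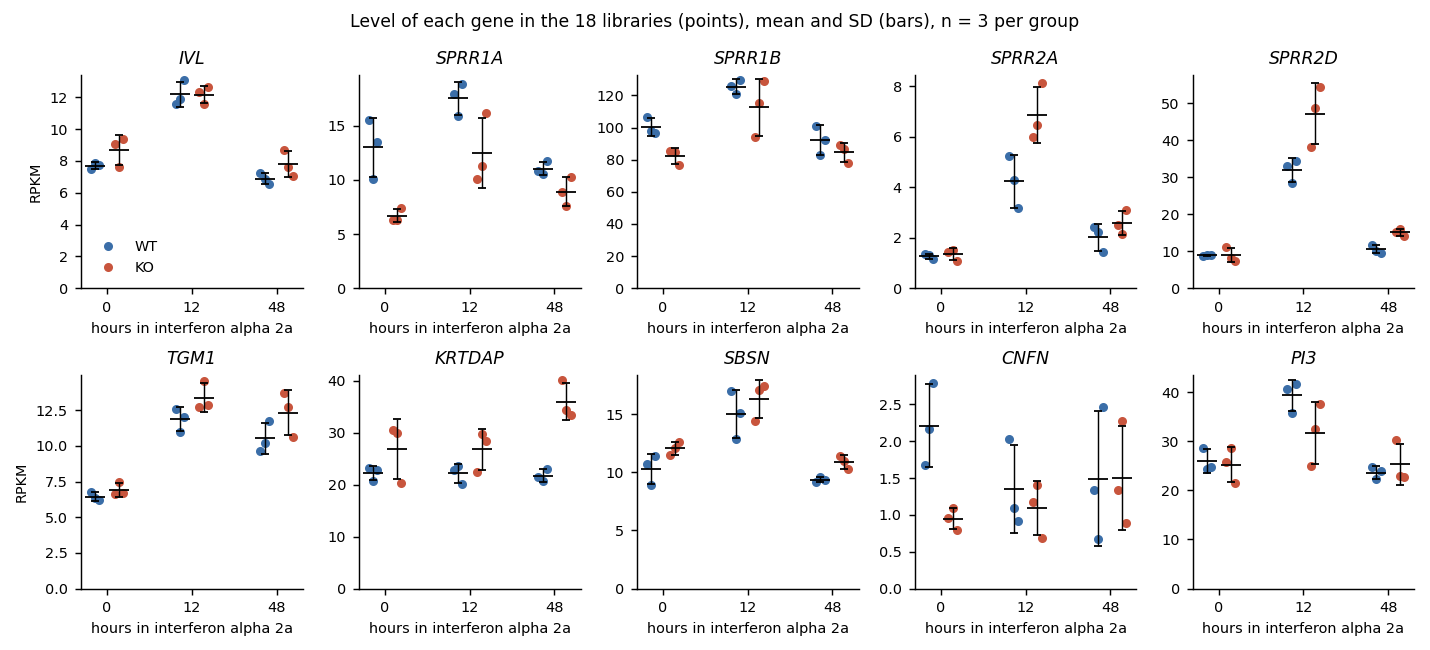
RPKM (y axis, from 0) of each of the 10 genes in the 18 libraries by hours in interferon alpha 2a (x axis), with WT in blue and KO in red; points are libraries, and bars are the mean and SD of 3. Most panels peak at 12 h, TGM1 stays high at 48 h, and KRTDAP stands apart in KO at 48 h.

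At 12 h most of the envelope genes were higher than in untreated cells, in both genotypes. Of the 10 genes, 8 rose in WT, where 15.1% of all genes tested rose, and 7 rose in KO, where 16% did. None of the 10 fell, while 29.8% of all genes fell in WT and 32.8% in KO. The 7 that rose in both genotypes were IVL, SPRR1A, SPRR1B, SPRR2A, SPRR2D, TGM1 and SBSN, and PI3 rose in WT. A gene was counted where limma's test on log2(RPKM + 1) gave a Benjamini-Hochberg adjusted p under 0.05 over all 13280 genes, and every log2 change below is on that scale, on which low genes change less than in RPKM. The median log2 change of the 10 was 0.54 in WT and 0.44 in KO, beside -0.09 in both genotypes over all genes. Scaling the libraries by median of ratios moved the all-gene background at 12 h from 33.6% of calls higher to 51.6% for WT, and for KO from 32.7% to 50.9%. With that scaling 21.8% of all genes rose in WT and 23.8% in KO.

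SPRR2D, a small proline-rich envelope precursor, had the largest change of the 10. Untreated WT libraries were at 8.7, 8.98 and 9.02 RPKM and those at 12 h at 33, 28.3 and 34.4 RPKM, without overlap. In KO the untreated libraries were at 11.2, 8.28 and 7.37 RPKM and those at 12 h at 38.2, 48.8 and 54.4 RPKM. All 6 treated libraries thus stood far above all 6 untreated ones. The change was 1.73 ± 0.13 (log2, SE, adjusted p = 4.41e-08) in WT and 2.28 ± 0.13 (adjusted p = 1.15e-09) in KO. As a ratio of mean RPKM these were 3.58-fold and 5.28-fold.

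SPRR2A, a close relative of SPRR2D, was lower in level and took the same course. Its untreated WT libraries were at 1.34, 1.3 and 1.16 RPKM, and at 12 h they were at 5.25, 4.28 and 3.17 RPKM. In KO it went from 1.44, 1.52 and 1.09 RPKM to 5.99, 6.47 and 8.11 RPKM. The groups did not overlap in either genotype. Its log2 change was 1.19 ± 0.16 in WT (adjusted p = 2.38e-05) and 1.74 ± 0.16 in KO (adjusted p = 3.57e-07). SPRR2 genes resemble each other: 32.7% of the 50-base stretches of the SPRR2A transcripts and 19.3% of those of SPRR2D also occur in other SPRR2 genes, so the division of reads between them is uncertain. The sum of SPRR2A, SPRR2D and SPRR2E is not free of that division, because RPKM scales each read by the length of its gene. Other SPRR2 genes outside the sum share these stretches too. In WT the sum was 12.1 ± 0.49 RPKM before and 38.7 ± 3.2 RPKM after 12 h, a 3.2-fold ratio of RPKM sums. The KO sums were 11.6 ± 2.1 and 56.8 ± 9.3 RPKM, a 4.91-fold ratio.

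SPRR1A and SPRR1B, envelope precursors of the other SPRR subfamily, moved less. SPRR1A was at 15.5, 10.1 and 13.5 RPKM in untreated WT cells and at 17.9, 15.9 and 18.9 RPKM at 12 h. In KO it was at 6.34, 6.31 and 7.37 RPKM and then at 10.1, 11.3 and 16.1 RPKM. Neither pair of groups overlapped, although in WT the highest untreated library lay just below the lowest treated one. The log2 change was 0.42 ± 0.16 in WT (adjusted p = 0.0379) and 0.79 ± 0.16 in KO (adjusted p = 0.000572). The WT call was lost without any 1 of 4 libraries, with log2 changes of 0.26 to 0.45 and adjusted p of 0.0569 to 0.195 (untreated replicates 2 and 3, 12 h replicates 1 and 3), and when limma saw the 6 compared libraries alone (adjusted p = 0.0561). SPRR1B, the most abundant of the 10, was at 100 ± 5.5 RPKM before and 125 ± 4.6 RPKM after 12 h in WT, and in KO at 82.4 ± 4.9 and 113 ± 17.7 RPKM, a log2 change of 0.32 ± 0.1 (adjusted p = 0.0127) and 0.44 ± 0.1 (adjusted p = 0.00138). SPRR1A shares 11.3% of its 50-base stretches with SPRR1B. Their sum was 113 ± 7.6 RPKM before and 143 ± 6.1 RPKM after 12 h in WT, and in KO 89.1 ± 4.3 and 125 ± 20.6 RPKM.

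IVL encodes involucrin, which is laid down early in the envelope as a scaffold. Its untreated WT libraries held 7.47, 7.89 and 7.74 RPKM, and those at 12 h held 11.6, 11.9 and 13.1 RPKM. KO cells went from 9.07, 7.64 and 9.4 RPKM to 12.3, 11.6 and 12.6 RPKM. Treated and untreated libraries did not overlap in either line. Involucrin RNA rose by 0.60 ± 0.08 (log2, adjusted p = 1.93e-05) in WT and by 0.44 ± 0.08 (adjusted p = 0.000256) in KO.

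TGM1 encodes transglutaminase 1, the membrane-bound enzyme that cross-links the precursors. WT libraries went from 6.79, 6.37 and 6.18 RPKM to 12.6, 11 and 12 RPKM at 12 h. KO libraries went from 6.63, 7.49 and 6.68 RPKM to 12.7, 14.6 and 12.9 RPKM. The level nearly doubled in both lines without overlap, with ratios of mean RPKM of 1.84 and 1.93. The log2 change was 0.79 ± 0.09 in WT (adjusted p = 4.42e-06) and 0.86 ± 0.09 in KO (adjusted p = 1.45e-06).

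PI3 encodes elafin, an elastase inhibitor that is also a transglutaminase substrate. In WT it went from 28.7, 24.3 and 24.8 RPKM to 40.7, 35.8 and 41.6 RPKM, without overlap, a log2 change of 0.58 ± 0.14 (adjusted p = 0.00247). Untreated KO libraries held 25.7, 28.5 and 21.5 RPKM of PI3, and the 12 h libraries held 25, 32.4 and 37.5 RPKM, where replicate 1 lay within the untreated range. The KO change of 0.31 ± 0.14 had an adjusted p of 0.0739. Without KO 12 h replicate 1 it was 0.46 (adjusted p = 0.00917), and it also passed without untreated KO replicate 2 and with median-of-ratios scaling. That 12 h library was the lowest of its group for 8 of the 10 genes, and its relative depth was 0.919 of the mean. KO 48 h replicate 3 was likewise the lowest of its group for 8 of the 10, at a relative depth of 1.041. The part of depth in these levels was not tested.

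SBSN encodes suprabasin, a secreted protein of the suprabasal epidermis. It went from 10.3 ± 1.3 to 15 ± 2 RPKM in WT, a log2 change of 0.50 ± 0.1 (adjusted p = 0.000573). In KO it went from 12.1 ± 0.56 to 16.3 ± 1.6 RPKM, a change of 0.40 ± 0.1 (adjusted p = 0.00269). The libraries did not overlap in either genotype.

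KRTDAP and CNFN did not pass the test at 12 h. KRTDAP encodes keratinocyte differentiation-associated protein, a small secreted protein of the suprabasal layers. It was at 23.2, 20.6 and 22.7 RPKM in untreated WT cells and at 22.8, 23.5 and 20.1 RPKM at 12 h, with a 95% interval of the log2 change from -0.28 to 0.28. Its KO interval at 12 h was also from -0.27 to 0.29. CNFN encodes cornifelin, an envelope component. At 0.67 to 2.79 RPKM over all 18 libraries it was near the level at which genes were filtered, and its 95% interval at 12 h ran from -1.01 to 0.08 for WT, and for KO from -0.46 to 0.64.

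**Figure D3:**
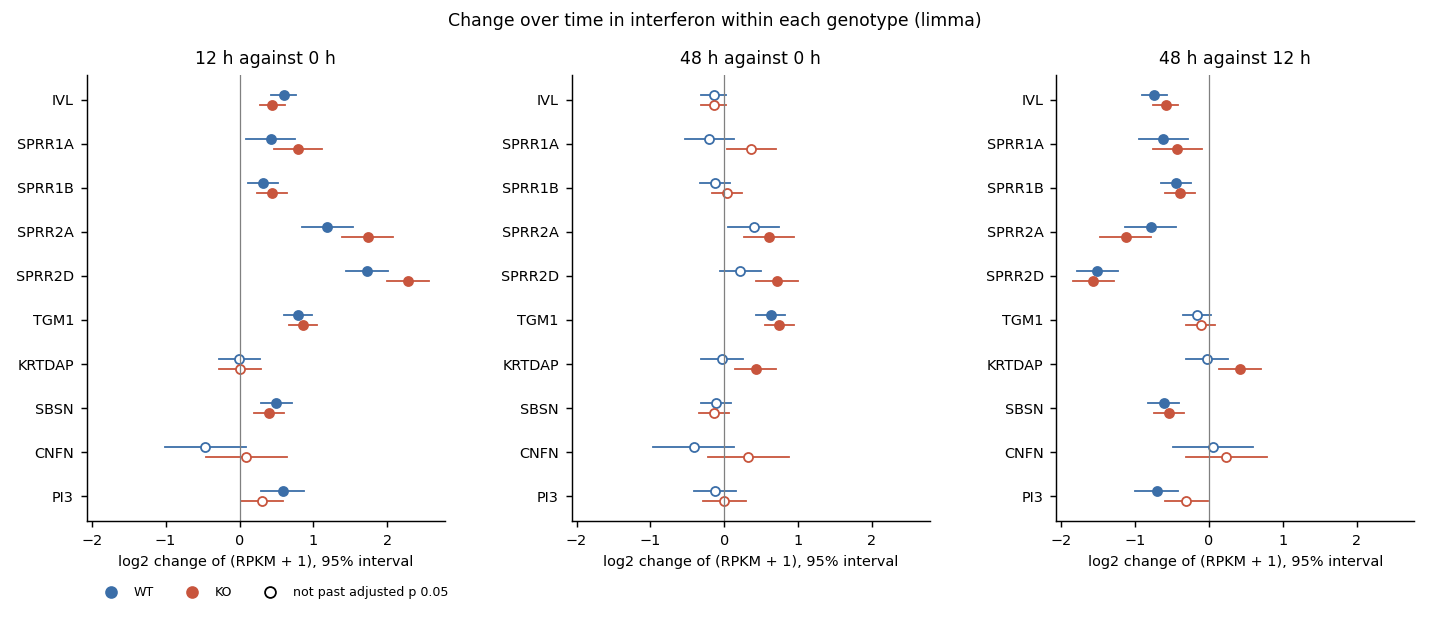
Log2 change of (RPKM + 1) with its 95% interval (x axis) for the 10 genes (y axis) in WT (blue) and KO (red), for 12 h against 0 h, 48 h against 0 h and 48 h against 12 h; open points did not pass an adjusted p of 0.05. SPRR2D and SPRR2A lie farthest to the right at 12 h, most genes lie to the left in 48 h against 12 h, and TGM1 stays to the right at 48 h against 0 h.

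Between 12 and 48 h most of these genes came down again. In WT 7 of the 10 fell, where 11.3% of all genes fell and 24.6% rose. In KO 6 fell and 1, KRTDAP, rose, where 14% of all genes fell and 27.7% rose. The 6 that fell in both genotypes were IVL, SPRR1A, SPRR1B, SPRR2A, SPRR2D and SBSN, and PI3 fell in WT. The median log2 change of the 10 was -0.62 in WT and -0.41 in KO, beside 0.07 and 0.08 over all genes. With median-of-ratios scaling 18.2% of all genes fell in WT and 21.2% in KO, in place of the shares above, and the share of calls that were higher went from 68.5% to 46.9% for WT, and for KO from 66.4% to 47.4%. These comparisons share the 12 h libraries with those against 0 h.

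SPRR2D at 48 h stood at 11.8, 10.2 and 9.63 RPKM in WT and at 15.2, 16.1 and 14.1 RPKM in KO. It fell by 1.51 and by 1.57 on the log2 scale from 12 h (adjusted p = 4.93e-07 and 2.36e-07). Of its rise in RPKM, 7.1% was still present at 48 h in WT (4.4% without WT 48 h replicate 1 to 9% without replicate 3) and 16.1% in KO (14.3% to 18.5% leaving out 1 library). SPRR2A fell by 0.79 in WT (adjusted p = 0.00127) and by 1.13 in KO (adjusted p = 4.75e-05), and 25.3% of its rise remained in WT (18.7% to 35.3% leaving out 1 library) and 22.5% in KO (17.8% to 26.5%). IVL fell by 0.74 and 0.59, to 6.89 ± 0.35 and 7.79 ± 0.82 RPKM. These means lay below those of untreated cells, but the log2 change from 0 to 48 h passed in neither genotype (-0.14 in both, adjusted p = 0.28 in both). PI3 in WT fell by 0.71 to 23.6 ± 1.2 RPKM, and SBSN fell by 0.62 in WT and by 0.54 in KO. SPRR1B fell by 0.45 and 0.40 to 92.1 ± 9.2 and 84.6 ± 6 RPKM. SPRR1A fell by 0.62 in WT (adjusted p = 0.00547) and by 0.43 in KO (adjusted p = 0.0372). In WT its 48 h libraries, at 10.6 to 11.8 RPKM, lay within the untreated range. In KO they held 7.55 to 10.3 RPKM, above all untreated libraries, and the highest exceeded the lowest at 12 h. Of its rise in KO, 38.5% remained (26.8% to 56% leaving out 1 library), but the change from 0 to 48 h did not pass (0.36, adjusted p = 0.146). The KO call for SPRR1A was lost without 12 h replicate 3 (adjusted p = 0.207), without 48 h replicate 1 (0.0726), without 48 h replicate 2 (0.15) and when limma saw the 6 compared libraries alone (0.0994). PI3 in KO had a log2 change of -0.31 ± 0.14 (adjusted p = 0.0822), which passed without 12 h replicate 1 (-0.46, adjusted p = 0.0113), without 48 h replicate 1 (-0.44, adjusted p = 0.0218) and with median-of-ratios scaling (-0.40, adjusted p = 0.0295).

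Of the genes that rose at 12 h, TGM1 kept the largest share of its rise at 48 h in both genotypes. At 48 h it was at 9.65, 10.2 and 11.8 RPKM in WT and at 13.7, 12.7 and 10.6 RPKM in KO, every one above the untreated libraries of its line. Against 0 h the log2 change was 0.63 ± 0.09 in WT (adjusted p = 0.000161) and 0.75 ± 0.09 in KO (adjusted p = 2.65e-05). Its mean kept 75.3% of the 12 h rise in RPKM in WT (64% to 83.5% leaving out 1 library) and 83.7% in KO (73.3% to 97%). From 12 to 48 h its log2 change was -0.16 ± 0.09 in WT (adjusted p = 0.182) and -0.11 ± 0.09 in KO (adjusted p = 0.338); with median-of-ratios scaling the WT change was -0.24 and passed (adjusted p = 0.0443).

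Set against untreated cells, TGM1 was the only one of the 10 that had risen at 48 h in WT, where 6.52% of all genes rose and 6.3% fell. Without WT 48 h replicate 3, SPRR2A passed too (log2 change 0.55, adjusted p = 0.0465, against 0.40 and 0.121 with all libraries). All WT libraries of SPRR2D and SPRR2A at 48 h lay above their untreated ones, though SPRR2D did not pass (0.22, adjusted p = 0.323). In KO 4 of the 10 had risen, TGM1, SPRR2D, SPRR2A and KRTDAP, where 5.9% of all genes rose and 7.42% fell (986 genes, or 609 without KO 0 h replicate 1 and 654 without KO 48 h replicate 2). SPRR2D was 0.71 ± 0.13 above untreated KO cells (adjusted p = 0.00158). SPRR2A was 0.61 ± 0.16 above (adjusted p = 0.0196), a call lost without untreated KO replicate 3 (adjusted p = 0.0733) or KO 48 h replicate 3 (0.0843). The 2 calls that were never lost in KO were those of TGM1 and SPRR2D.

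KRTDAP followed a course of its own. In WT it stayed between 20.1 and 23.5 RPKM in all 9 libraries. Untreated KO libraries held 30.6, 29.9 and 20.2 RPKM, those at 12 h held 22.3, 29.7 and 28.3 RPKM, and those at 48 h held 40.1, 34.3 and 33.4 RPKM, where all 3 libraries lay above the other 6 of that line. The KO change from 12 to 48 h was 0.42 ± 0.13 (adjusted p = 0.0187), and the change from 0 to 48 h was 0.42 ± 0.13 (adjusted p = 0.0446). The first call was lost without KO 12 h replicate 1 (0.30, adjusted p = 0.102), without KO 48 h replicate 1 (0.34, adjusted p = 0.0817) and with median-of-ratios scaling (0.33, adjusted p = 0.0586). The second was lost in 8 of 13 alternatives, among them the fits without untreated KO replicate 3 (0.24, adjusted p = 0.174) and without KO 48 h replicates 1, 2 or 3 (adjusted p = 0.157, 0.0785 and 0.0575).

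Between genotypes 1 of the 10 genes passed the test at each time. At 0 h SPRR1A was lower in KO, where 2.07% of all genes were lower and 2.82% higher. The 375 higher genes became 197 and 229 without WT 0 h replicates 2 and 3, and 207 and 212 without KO 0 h replicates 1 and 2, and the last of these took the 275 lower genes to 182. The untreated libraries quoted above for SPRR1A, 10.1 to 15.5 RPKM in WT and 6.31 to 7.37 RPKM in KO, did not overlap, and the log2 difference was -0.85 ± 0.16 (adjusted p = 0.00357). The call held in all 13 alternatives. At 12 h the difference was -0.48 ± 0.16 (adjusted p = 0.114), with the highest KO library above the lowest WT library, and at 48 h it was -0.29 ± 0.16 (adjusted p = 0.391). The KO libraries at 48 h, at 7.55 to 10.3 RPKM, again lay below those of WT, at 10.6 to 11.8 RPKM. Without KO 12 h replicate 3 the 12 h difference was -0.67 and passed (adjusted p = 0.0218). SPRR1B also lay lower in all 3 untreated KO libraries (76.9 to 85.5 RPKM) than in WT (96.6 to 107 RPKM), with a log2 difference of -0.28 ± 0.1 and an adjusted p of 0.115.

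SPRR2D was higher in KO at 12 h, where 1.6% of all genes were higher and 2.02% lower. The 213 higher genes became 133 and 136 without WT 12 h replicates 1 and 3, and 137 and 135 without KO 12 h replicates 1 and 3. Leaving out replicate 1 of WT or of KO took the 268 lower genes to 171 or 176. The KO libraries ran from 38.2 to 54.4 RPKM and the WT libraries from 28.3 to 34.4 RPKM, a log2 difference of 0.54 ± 0.13 (adjusted p = 0.0305). That call was lost in 7 of 13 alternatives: without WT 12 h replicate 1 (adjusted p = 0.0765), 2 (0.106) or 3 (0.0505), without KO 12 h replicate 2 (0.0943) or 3 (0.132), in a fit on these 6 libraries alone (0.133) and with the replicate number as a block (0.0548). SPRR2A had a log2 difference of 0.60 ± 0.16 at 12 h without overlap and an adjusted p of 0.0531, and it passed without WT 12 h replicate 1 (0.73, adjusted p = 0.0319). At 48 h SPRR2D stood at 14.1 to 16.1 RPKM in KO and 9.63 to 11.8 RPKM in WT, a difference of 0.48 ± 0.13 with an adjusted p of 0.0511. In untreated cells SPRR2D differed by -0.01 (95% interval -0.29 to 0.27) and SPRR2A by 0.05 (-0.29 to 0.39).

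KRTDAP was higher in KO at 48 h, where 2.03% of all genes were higher and 2.16% lower (without KO 48 h replicate 1, 174 genes were higher in place of 269). The KO libraries at 33.4 to 40.1 RPKM lay above the WT libraries at 20.6 to 23.1 RPKM, and the log2 difference was 0.70 ± 0.13 (adjusted p = 0.00481), with a 1.66-fold ratio of mean RPKM. This call held in all 13 alternatives. At 0 and 12 h the difference was 0.25 ± 0.13 and 0.26 ± 0.13 (adjusted p = 0.348 and 0.345). Without untreated KO replicate 3, the lowest of that group, the difference at 0 h was 0.43 and passed (adjusted p = 0.0333).

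IVL, TGM1, SBSN, PI3 and CNFN passed in no genotype comparison. Untreated CNFN libraries did not overlap, with 0.8 to 1.09 RPKM in KO below 1.67 to 2.79 RPKM in WT. The log2 difference was -0.71 ± 0.26 (95% interval -1.25 to -0.16, adjusted p = 0.147), and the KO mean was 0.43 of the WT mean in RPKM. SBSN libraries did not overlap at 0 h, where KO had 11.5 to 12.6 RPKM and WT 8.87 to 11.4 RPKM (0.21 ± 0.1, adjusted p = 0.251). At 48 h SBSN was again apart, at 10.3 to 11.4 RPKM in KO and 9.18 to 9.59 RPKM in WT (0.20 ± 0.1, adjusted p = 0.338). The 95% intervals of the KO against WT difference at 12 h were -0.17 to 0.17 for IVL, -0.03 to 0.35 for TGM1, -0.09 to 0.32 for SBSN, -0.61 to -0.03 for PI3 (adjusted p = 0.243) and -0.70 to 0.40 for CNFN. TGM1 was between 12.7 and 14.6 RPKM in KO and 11 and 12.6 RPKM in WT at that time, without overlap but within a log2 difference of 0.16 ± 0.09. In order of time, the median difference of the 10 was 0.02, 0.06 and 0.17, beside 0.02, 0.01 and 0.01 over all genes.

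**Figure D4:**
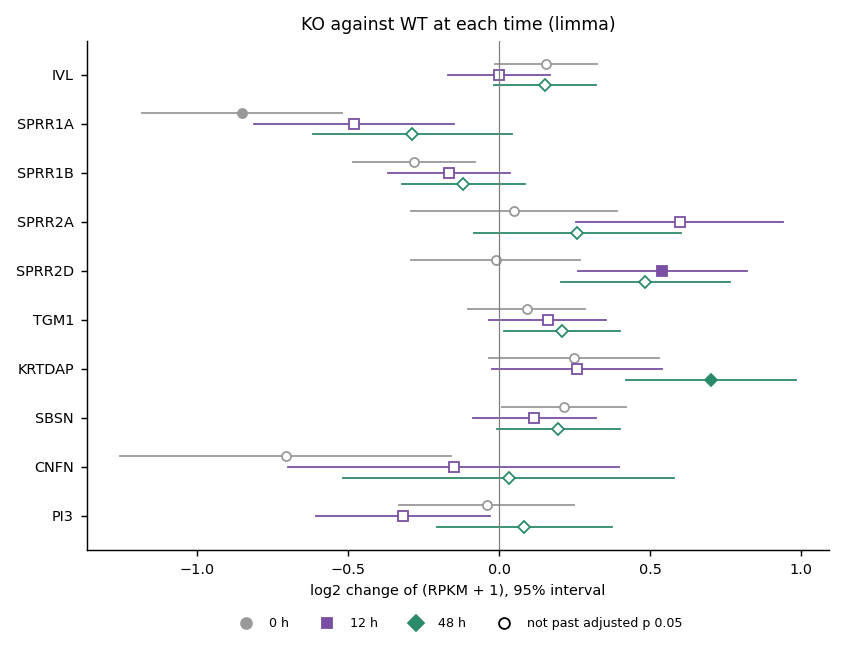
Log2 difference of (RPKM + 1) between KO and WT with its 95% interval (x axis) for the 10 genes (y axis) at 0 h (grey circles), 12 h (violet squares) and 48 h (green diamonds); filled symbols passed an adjusted p of 0.05. The 3 filled symbols are SPRR1A at 0 h (-0.85), SPRR2D at 12 h (0.54) and KRTDAP at 48 h (0.70).

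Whether the change in interferon itself differed between genotypes was tested as an interaction in limma. None of the 10 passed at either time, and few genes of any kind did: 0.0753% of all genes tested had a larger change in KO at 12 h and 0% a smaller one, and at 48 h the shares were 0.0678% and 0.0151%. At an unadjusted p under 0.05 there were 2 of the 10 at 12 h (SPRR2D and SPRR2A), where 5.75% of all genes were, and 3 at 48 h (SPRR2D, SPRR1A and KRTDAP), where 6.22% were. The interaction of SPRR2D was 0.55 ± 0.19 at 12 h (95% interval 0.16 to 0.95, adjusted p = 0.681) and 0.50 ± 0.19 at 48 h (adjusted p = 0.76). For SPRR2A at 12 h it was 0.55 ± 0.23 (adjusted p = 0.806). For SPRR1A and KRTDAP at 48 h it was 0.56 ± 0.22 and 0.45 ± 0.19 (adjusted p = 0.76 for both). The genotype difference was thus not shown to differ between 0 h and either later time for these genes, and its difference between 12 and 48 h was not tested.

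The other genes of the barrier were followed through 5 lists. The other envelope precursors, 39 genes that include filaggrin, loricrin and the late cornified envelope genes, were mostly not seen: 10 were in the table and 6 were tested. At 12 h in WT 3 of the 6 fell and none rose, where 29.8% of all genes fell and 15.1% rose. In KO 2 fell and 1 rose, where 32.8% of all genes fell and 16% rose. PPL, which encodes periplakin, a plakin that links the envelope to desmosomes and keratin filaments, fell by 1.13 (log2, adjusted p = 1.42e-07) in WT and by 0.94 (adjusted p = 9.48e-07) in KO. It then rose by 0.80 in both from 12 to 48 h. CSTA, the envelope protease inhibitor cystatin A, fell by 0.25 in WT and 0.37 in KO at 12 h and rose by 0.44 and 0.45 afterwards. LCE1C fell by 0.77 in WT, at a level of 1.85 RPKM untreated. SPRR2E rose in KO by 0.73 (adjusted p = 0.00376) and fell again by 0.62. Precursors of the same structure thus changed in both directions at the same time.

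Of 24 cross-linking enzymes, proteases and protease inhibitors tested, 14 were called higher and 3 lower in WT at 12 h, while KO had 13 higher and 4 lower. Over all genes 15.1% were higher and 29.8% lower in WT at 12 h, and 16% and 32.8% in KO, which is the background for each list count at 12 h below. CTSC, a lysosomal protease, rose by 1.57 in WT and 1.45 in KO. SPINK6, an inhibitor of kallikreins, rose by 0.81 in WT, and SERPINB7 fell by 0.88 in WT and 0.91 in KO. SERPINB2 rose by 1.07 and KLK10, a kallikrein protease, by 0.82 in KO. From 12 to 48 h 13 fell and 1 rose in WT, where 11.3% of all genes fell and 24.6% rose, with KLK6 and KLK10 down by 0.93 and 0.92. TGM2, a transglutaminase of wide tissue distribution, rose by 0.86 in WT at 12 h and was lower in KO than in WT at 0 h (-0.86, adjusted p = 0.000605), 12 h (-1.37, adjusted p = 6.02e-06) and 48 h (-1.57, adjusted p = 1.4e-06). TGM1 passed at none of those times. More of the 24 were higher than lower in KO: 7 and 2 at 0 h, 3 and 2 at 12 h, and 4 and 2 at 48 h. Over all genes 2.82% were higher and 2.07% lower at 0 h, 1.6% and 2.02% at 12 h, and 2.03% and 2.16% at 48 h. KLK5, for 1, was higher in KO at each time (0.50, 0.56 and 0.49 in order of time).

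Suprabasal keratins and junction genes gave 12 higher and 2 lower of 22 in WT at 12 h, and 12 and 3 in KO, beside 15.1% higher and 29.8% lower over all WT genes. LY6D rose by 0.99 in WT, and LYPD3 rose by 0.75 in WT and 0.66 in KO. GJB2, which encodes connexin 26, rose by 0.64 in WT and 0.88 in KO. CLDN1, the tight-junction claudin 1, took the opposite course from most and rose by 1.49 in WT and 1.27 in KO from 12 to 48 h. Lipid barrier genes had 4 higher and 5 lower of 13 in WT at 12 h, beside the same background. SULT2B1, a cholesterol sulfotransferase, rose by 0.81 and 0.89 at 12 h and then fell by 0.96 and 1.09, whereas ABCA12, the lamellar body lipid transporter, fell by 0.36 and 0.52 and then rose by 0.29 and 0.46.

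Among 33 differentiation regulators 7 were called higher and 9 lower in WT at 12 h, while KO had 8 higher and 10 lower, beside 15.1% and 29.8% of all genes in WT and 16% and 32.8% in KO. OVOL1, a zinc-finger repressor of the differentiating layers, rose by 0.83 and 0.87 and then fell by 0.88 and 0.77. CEBPB fell by 0.69 and 0.76 at 12 h, and JUND, an AP-1 subunit, fell by 0.69 in WT. EHF, an epithelial ETS factor, was higher in KO than in WT at all 3 times (1.04, 0.40 and 0.83 in order of time), and GRHL3, a grainyhead-like factor that activates barrier genes, was higher in KO by 0.57 at 12 h (adjusted p = 0.0119).

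Basal keratinocyte genes gave 6 higher and 2 lower of 15 in WT at 12 h, with a median log2 change of 0.07, and 8 and 2 in KO, with a median of 0.11. Of 20 proliferation genes 4 were called higher and 10 lower in WT, while KO had 6 higher and 9 lower, with medians of -0.09 and -0.11. The all-gene shares at 12 h were again 15.1% higher and 29.8% lower in WT and 16% and 32.8% in KO. At 48 h against 0 h 4 proliferation genes were lower in WT and 7 in KO, and none was higher, where 6.3% of all genes were lower in WT and 7.42% in KO. Their part in the changes of the 10 was not tested.

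**Figure D5:**
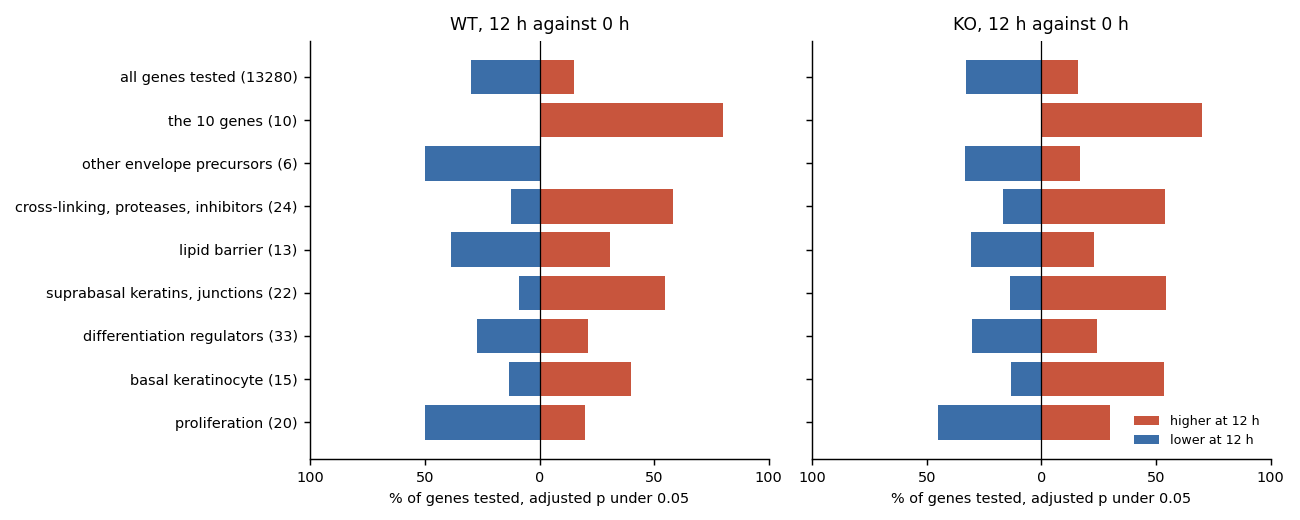
Share of the genes tested in each list (number in brackets) that were higher (red, right) or lower (blue, left) at 12 h than at 0 h in WT and KO, in percent. The 10 genes stand at 80% higher in WT and 70% in KO, beside 15.1% and 15.99% of all genes. The other envelope precursors stand at 50% lower in WT and 33.33% lower in KO, beside 29.81% and 32.85% of all genes.

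IVL and the 4 SPRR genes lie in the epidermal differentiation complex on chromosome 1. In the RefSeq gene order the run from S100A10 to S100A1 holds 63 protein-coding genes, of which 29 were in the table and 20 were tested. All 5 of these rose at 12 h in both genotypes. Of the other 15 tested, 2 were called higher and 4 lower in WT, while KO had 3 higher and 5 lower. Over all genes 15.1% were higher and 29.8% lower in WT, and 16% and 32.8% in KO, so these 15 lay near the shares of all genes. The risers were S100A11 (0.28 and 0.26) and S100A16 (0.32 and 0.34) in both genotypes and SPRR2E in KO, named here after their values were seen. The median log2 change of those 15 at 12 h was -0.11 in WT and -0.08 in KO. KRTDAP and SBSN lie near each other on chromosome 19, as their promoter windows show, and SBSN rose at 12 h where KRTDAP did not pass.

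The 10 genes were compared library by library. Across 18 libraries the median Pearson correlation of their 45 pairs on log2(RPKM + 1) was 0.448, beside 0.036 over pairs of all genes. The highest was SPRR2A with SPRR2D at 0.954, a pair that shares sequence, and IVL with SBSN stood at 0.893. KRTDAP and CNFN stood apart, with correlations of 0.127 and -0.034 to the mean scaled level of the 10, where the other 8 had 0.655 to 0.94. Each gene is itself part of that mean, which raises its value. Pair by pair, KRTDAP ran from -0.418 with SPRR1A to 0.325 with TGM1, and CNFN from -0.323 with IVL to 0.112 with SPRR1A. These values include the difference between groups. After each group's mean was taken off, the median of the 45 pairs was 0.227, beside 0.003 over all genes, and 36 of 45 were above 0. SPRR1B with PI3 was the highest at 0.849, followed by SPRR1B with SPRR2D at 0.739 and PI3 with KRTDAP at 0.715, and the last included a gene that did not rise at 12 h. Correlations are given as descriptions, since pairs share their libraries, their depth and their cultures.

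Outside the 10, the genes most like their mean scaled level over the 18 libraries were NOP2 (Pearson r = 0.94), KRT6C (0.927), OVOL1 (0.927), LMO2 (0.924) and IL1RN (0.924). KRT6C, a keratin of hyperproliferative and wounded epidermis, averaged 2.51 ± 0.22, 10.9 ± 0.97 and 3.13 ± 0.25 RPKM in WT in order of time, and 2.55 ± 0.29, 12 ± 1.5 and 3.88 ± 0.12 RPKM in KO. IL1RN, which encodes the interleukin 1 receptor antagonist, was at 7.35 ± 0.88, 20 ± 0.5 and 9.09 ± 0.64 RPKM in WT and at 8.68 ± 0.68, 23 ± 1.5 and 11.2 ± 1 RPKM in KO. OVOL1 was at 1.73 ± 0.18, 3.84 ± 0.29 and 1.62 ± 0.16 RPKM in WT. LMO2 was low throughout, with 1.82 ± 0.17 RPKM in WT at 12 h. NOP2, a nucleolar RNA methyltransferase, went from 37.7 ± 0.25 to 51.1 ± 1.6 and 40.6 ± 0.85 RPKM in WT.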

How the data were processed

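The authors deposited 1 table of RPKM values, per the file header, with 16472 Ensembl gene IDs and 18 library columns. The submitters' processing notes name cutadapt, STAR 2.6.1, RSEM 1.3.0, limma 3.50.3 and hg19 without their roles; the annotation and the totals used for scaling are not given in the sources used here. No count test was used, since RPKM is already scaled, and absolute depth is unknown. Symbols matched 15666 of the IDs. Replicates are called biological in the labels, with no word on separate cultures, so p-values measure the spread between these libraries.

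Values were taken as log2(RPKM + 1). Genes at an RPKM of 1 or more in at least 3 libraries (13280) entered a cell-means model over all 18 libraries in limma 3.58.1 (R 4.3.3), with the trend option for the variances. Benjamini-Hochberg adjustment ran over all genes within each of 11 comparisons, with a threshold of 0.05. Alternatives were a pseudocount of 0.1, no filter, median-of-ratios scaling, a mean RPKM of 5 or more, only the libraries of the comparison, a block for the replicate number, no variance trend, and leaving out each library.

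The 10 genes and the lists around them were chosen with earlier results of these data known, and support nothing by their choice. Named besides the 10 and SP100 were up to 4 genes per list and comparison with the largest change among those called (not all are reported here), and the 5 genes most correlated with the mean scaled level of the 10. A listed gene given for WT or KO alone is thus not shown to be unchanged in the other. Promoters came from RefSeq (GRCh38.p14), and 50-base stretches from GENCODE transcripts.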

Additional observations from a re-analysis of the deposited data

How the results depend on the processing

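Each of the 9 pairwise comparisons was refitted under 13 alternatives, and each of the 2 interactions under 19. No called change reversed. Of 1528 refitted changes of single genes, 29 lost a call, 15 gained one and 18 uncalled ones moved by at least 1 SE. In 51, none of them called, the sign differed. The number of the 10 called for KO against WT at 12 h went from 1 to 0 with the libraries of the comparison only. At 48 h it went from 1 to 2 with a pseudocount of 0.1, with a mean RPKM of at least 5 (8 of the 10 tested) and with the libraries of the comparison only, each time through SPRR2D (adjusted p = 0.0499, 0.0472 and 0.0425); the cause was not tested. Leaving out 1 library gave 7 to 8 for WT 12 h against 0 h, 1 to 2 for WT 48 h against 0 h and 7 in every case for WT 48 h against 12 h. It gave 7 to 8 for KO 12 h against 0 h, 2 to 4 for KO 48 h against 0 h and 6 to 7 for KO 48 h against 12 h. For KO against WT it gave 1 to 2 at 0 h, 0 to 1 at 12 h and 1 at 48 h, and 0 for both interactions.

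Replicate numbers did not pair the libraries: deviations from the group means of libraries with the same number had a median correlation of -0.0126, and 2 of 45 pairs exceeded 0.1. The replicate block left the calls at 8 for WT 12 h against 0 h, ended those of SPRR2D for KO against WT at 12 h (0.54, adjusted p = 0.0548) and of KRTDAP for KO 48 h against 0 h (0.42, adjusted p = 0.0572), and added SPRR1A for KO against WT at 12 h (-0.48, adjusted p = 0.0446). Over all genes, median-of-ratios scaling moved the genes lower at 48 h than at 12 h from 1505 to 2418 for WT, and for KO from 1860 to 2810; the higher ones in WT went from 3267 to 2135. The libraries of the comparison only, with fewer samples, left 148 of 375 genes higher and 158 of 275 lower in KO at 0 h, 81 of 213 and 132 of 268 at 12 h, 117 of 269 and 133 of 287 at 48 h, and 443 of 784 and 502 of 986 for KO 48 h against 0 h. The ranges of the share of a rise kept at 48 h, leaving out 1 library, were added after seeing the data. A mean RPKM of at least 5, which tests fewer genes, left 189 of 287 genes lower in KO at 48 h. The number of libraries and the low level of CNFN limit the precision.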
